A study of Mus musculus with 37 samples.

Results

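The genes of NAD metabolism and the sirtuins were followed in bone marrow-derived macrophages (BMDMs) of WT and Arntl-/- mice after activation of TLR4. The 10 genes were taken by name and are Nampt, Nmnat1, Nmnat3, Nadsyn1, Nadk, Cd38, Sirt1, Sirt2, Sirt3 and Sirt6, out of 24016 genes in the expression table. Arntl encodes Bmal1, a core activator of the circadian clock. BMDMs were grown for 6 days with M-CSF from male mice of 6 to 9 weeks, WT or Arntl-/-, in which the gene is missing from the whole animal and not only from macrophages. The labels give C57BL/6J as the strain of every sample, whereas the methods of the study give C57BL/6 for Arntl-/- and a supplier for WT, and its results speak of littermates, so the relation of the WT mice to the mutants is unclear. Cells of both genotypes received Kdo2-lipid A (KLA), a pure TLR4 agonist that corresponds to the lipid anchor of endotoxin with its inner sugars, and polyA RNA was sequenced at 0, 6, 24 and 48 h. Each of the 8 conditions was 1 library, so no value has a replicate and differences between single conditions were not tested.

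NAD carries electrons in metabolism and is also consumed as a substrate. In macrophages most NAD is rebuilt from nicotinamide by the salvage pathway: Nampt makes nicotinamide mononucleotide, and the Nmnat enzymes join it to an adenylyl group. Sirtuins, PARPs and the ectoenzyme Cd38 split NAD and release nicotinamide, and in several tissues the clock drives Nampt through E-boxes, so that NAD and Sirt1 activity cycle with it.

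Levels are given as scaled FPKM, the deposited FPKM divided by a factor that equalizes the typical gene across the 8 libraries. These FPKM are per 10000000 reads, and coordinates are those of mm9. Ratios are on the log2 scale after adding 0.1, and 1.5-fold, a log2 difference of 0.585, was the line for calling a gene changed. Intervals are exact binomial (Clopper-Pearson) or Poisson intervals at 95% for the reads behind the values. They cover counting error at most, and are too narrow even for it where both ends of a fragment were counted as reads. Reads are thus not independent molecules, and nothing given says that the libraries of a genotype came from separate mice or cultures.

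Depth ran from 8587560 to 27036785 reads on genes, with Arntl-/- at 48 h the shallowest and WT at 6 h the deepest library. Arntl itself lay at 32.5 to 38.8 scaled FPKM in WT and at 11.3 to 20.5 in Arntl-/- libraries, so every library matched its genotype in direction, although reads on the gene remained in each Arntl-/- library. Of the markers, all 8 macrophage genes were detected, with a summed level of 14683 to 36403 scaled FPKM in WT and 16577 to 32198 in Arntl-/-, and the 3 T cell genes were at or under the floor of 3 reads. The 6 stromal genes summed to 476 to 1361 in WT and 361 to 779 in Arntl-/-, and the sum was lower in Arntl-/- at each time. Its members did not all go that way, since Dcn was higher in Arntl-/- at 0 h (39.3 against 16.8 scaled FPKM), 24 h and 48 h and Lum at 0, 6 and 48 h. Stromal and macrophage genes were also higher late in the time course. At 48 h against 0 h all 5 stromal genes that passed the filter were past 1.5-fold in each genotype (median 1.64 in WT and 1.06 in Arntl-/-), as were 5 of 8 macrophage genes in WT (median 0.64) and 6 of 8 in Arntl-/- (0.81). The 6 neutrophil genes found of 7 summed to 490 to 931 in WT and 824 to 978 in Arntl-/-, with Mpo and Elane at the floor. Their sum was higher in Arntl-/- at each time (863 against 490, 978 against 515, 824 against 604 and 951 against 931), with S100a9 at 405 against 163 at 0 h and 428 against 209 at 6 h. At 48 h nearly all of it was S100a8 (913 in WT and 915 in Arntl-/-), while S100a9 lay at 10.1 and 9.10. The part of these cells in the results below was not tested, and in bulk RNA fewer cells of a type and less RNA per cell cannot be told apart.

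The promoters of 4 of the genes are shown because the questions of the study, the clock and TLR4, act on DNA through short motifs. Each is the 250 bases before the start of the transcript in the deposited table, read from the mm9 genome on the strand of the gene. The capitals mark the E-box CACGTG, which Bmal1 with Clock binds, in Sirt1, and the kappaB consensus of NF-kappaB in Sirt2. Nampt and Cd38 are shown as 2 of the 3 genes that passed 1.5-fold at 48 h against 0 h in both genotypes, and they have no capitals because no motif searched was found.
Sirt1 (chr10:62801784-62802033, minus strand): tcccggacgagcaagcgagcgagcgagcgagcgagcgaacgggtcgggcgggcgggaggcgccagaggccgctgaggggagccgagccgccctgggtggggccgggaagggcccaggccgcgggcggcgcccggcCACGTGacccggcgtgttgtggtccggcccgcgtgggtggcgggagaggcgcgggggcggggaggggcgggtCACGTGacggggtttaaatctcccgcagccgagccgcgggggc
Sirt2 (chr7:29551521-29551770, plus strand): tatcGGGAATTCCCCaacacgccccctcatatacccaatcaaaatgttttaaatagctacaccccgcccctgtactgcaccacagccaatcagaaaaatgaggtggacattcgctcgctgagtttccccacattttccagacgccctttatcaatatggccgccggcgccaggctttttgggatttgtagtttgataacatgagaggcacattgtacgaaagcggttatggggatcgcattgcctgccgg
Nampt (chr12:33504950-33505199, plus strand): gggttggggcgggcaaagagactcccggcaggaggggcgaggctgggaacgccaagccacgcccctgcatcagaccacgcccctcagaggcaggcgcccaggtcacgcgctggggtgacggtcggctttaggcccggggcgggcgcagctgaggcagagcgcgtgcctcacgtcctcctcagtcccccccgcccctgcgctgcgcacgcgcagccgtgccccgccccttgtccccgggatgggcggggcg
Cd38 (chr5:44259816-44260065, plus strand): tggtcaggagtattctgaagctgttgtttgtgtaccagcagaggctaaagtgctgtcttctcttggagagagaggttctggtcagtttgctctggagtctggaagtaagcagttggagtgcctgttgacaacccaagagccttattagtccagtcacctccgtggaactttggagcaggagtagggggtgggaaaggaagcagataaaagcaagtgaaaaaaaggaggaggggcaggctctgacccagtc
Sirt1 held 2 E-boxes, at -115 to -110 and at -43 to -38 from its start. It was the only one of the 10 genes with CACGTG in this window, which 8.65% of 10486 promoters of the genes tested held. The kappaB consensus was found in Sirt2 alone, as 2 overlapping matches from -246 to -236, against 8.81% of promoters. None of the 10 windows held the E-prime box AACGTG (4.78% of promoters), the AP-1 site TGANTCA (4.12%) or the D-box TTANGTAA (1.16%). Both strands were searched. A match describes these letters only, and the 250 bases leave out more distant elements.

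All 10 genes passed the filter on low values, at least 100 scaled reads in 1 or more WT libraries, which left 10487 genes for comparison. Nmnat1 had a mean of 89.8 scaled reads over the 8 libraries and passed through WT at 6 h, its highest library. Its comparisons that use this library are thus not independent of the filter. Nadk, the cytosolic kinase that turns NAD into NADP, was the highest of the 10, with a mean of 757 ± 80.9 scaled FPKM (SD over the 8 libraries). Cd38 followed at 560 ± 127, Sirt2 at 504 ± 78.2 and Nampt at 313 ± 64.5. The other 6 lay well below, from Sirt6 at 96.1 ± 16.3 down to Nadsyn1 at 25.0 ± 6.52. In between were Sirt3 at 56.5 ± 16.7, Sirt1 at 54.7 ± 14.7, Nmnat1 at 43.1 ± 15.4 and Nmnat3 at 41.2 ± 5.11. These SDs mix genotypes and times and are no replicate error. Most steps of this order were kept in all 8 libraries, but Cd38 was above Sirt2 and Nmnat1 above Nmnat3 in 6 of 8, Sirt1 above Nmnat1 in 7, and Sirt3 above Sirt1 in 4, so Sirt3 and Sirt1 had no order. By level, Nadk stood above 94.3% of the genes tested and Nadsyn1 above 9.57%.

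**Figure D1:**
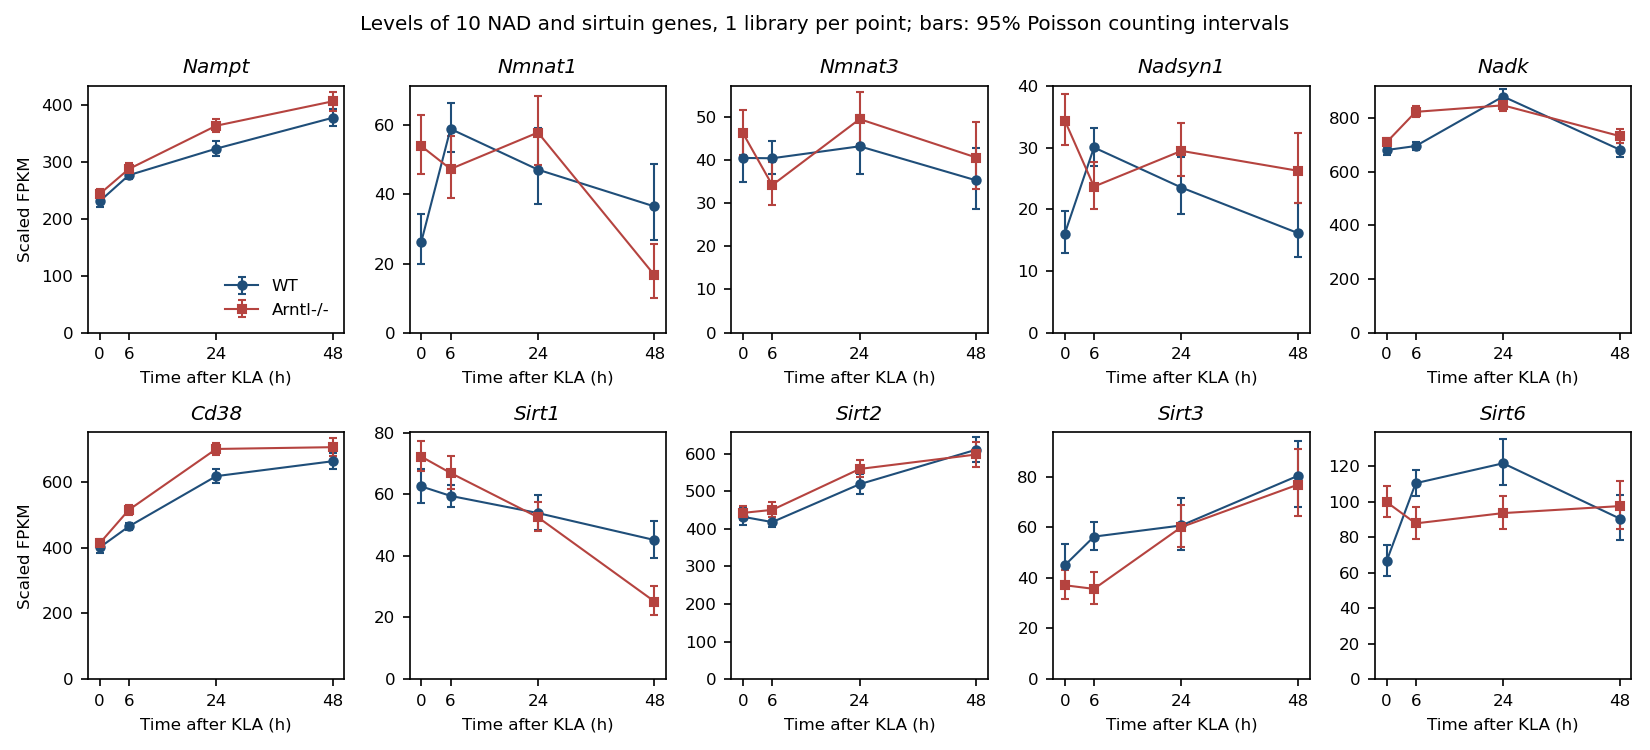
Scaled FPKM (vertical axis, from 0) of each of the 10 genes against time after KLA in h, with 1 library per point, WT as circles and Arntl-/- as squares, and bars for 95% Poisson counting intervals. Nampt and Cd38 rose along nearly the same line in both genotypes, Nmnat1 and Sirt1 were lowest in Arntl-/- at 48 h, and Nmnat1, Nadsyn1 and Sirt6 were low in the single WT library at 0 h.

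Across the 6 comparisons of a later time with 0 h, between 0 and 5 of the 10 genes passed 1.5-fold. In WT, 3 of 10 passed at 6 h, all of them higher (Nmnat1, Nadsyn1 and Sirt6), where 8.86% of the genes tested passed in either direction. Nmnat1 passed the filter through the WT library at 6 h, so its call there is not independent of the filter. At 24 h Nmnat1, Cd38 and Sirt6 were higher, against 17.5% of genes, and at 48 h Nampt, Cd38 and Sirt3, against 28.6%. In Arntl-/-, none of 10 passed at 6 h, where 6.42% of genes did, Cd38 and Sirt3 were higher at 24 h (17.3%), and at 48 h Nampt, Cd38 and Sirt3 were higher and Nmnat1 and Sirt1 lower (32.6%). The median change of the 10 genes was 0.24, 0.46 and 0.46 in WT at 6, 24 and 48 h and -0.08, 0.18 and 0.01 in Arntl-/-, beside medians between -0.014 and 0.010 over all genes tested. The shares differed by depth. Genes with a mean under 200 scaled reads, among them Nmnat1, Nmnat3, Nadsyn1 and Sirt3, passed in 22.8%, 37.2% and 50.3% of cases at the 3 later times in WT and in 19.1%, 34.2% and 48.1% in Arntl-/-. For genes of 1000 or more reads, among them Nampt, Nadk, Cd38 and Sirt2, these shares were 5.96%, 9.18% and 19.2% in WT and 2.31%, 9.88% and 25.6% in Arntl-/-, and for those between, with Sirt1 and Sirt6, 6.47%, 17.6% and 28.9% and 5.44%, 17.7% and 33%. At 6 h the class under 200 reads leaned opposite ways in the genotypes, with 16.5% higher and 6.28% lower in WT and 6.7% higher and 12.4% lower in Arntl-/-. By 48 h the share of genes past the line was so large that 3 of 10 in WT is close to it.

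Between the genotypes, 3 of the 10 genes were past 1.5-fold at 0 h, 1 at 6 h, none at 24 h and 3 at 48 h. The shares over all genes tested were 5.18%, 4.65%, 6.78% and 11.6%. At 0 h Nmnat1, Nadsyn1 and Sirt6 were higher in Arntl-/-, at 6 h Sirt3 was lower, and at 48 h Nadsyn1 was higher and Nmnat1 and Sirt1 were lower. Of these 7 calls, 5 fell on genes of few reads. Genes with a mean under 200 scaled reads, which include Nmnat1, Nmnat3, Nadsyn1 and Sirt3, passed the line in 18.8%, 15.4%, 25.7% and 38.5% of cases at the 4 times. Those of 200 to 1000 reads, with Sirt1 and Sirt6, passed in 3.96%, 3.05%, 5.32% and 10.6%, and those of 1000 or more, with Nampt, Nadk, Cd38 and Sirt2, in 0.981%, 2.14%, 0.679% and 1.61%. These classes of depth were set after the values were seen.

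**Figure D2:**
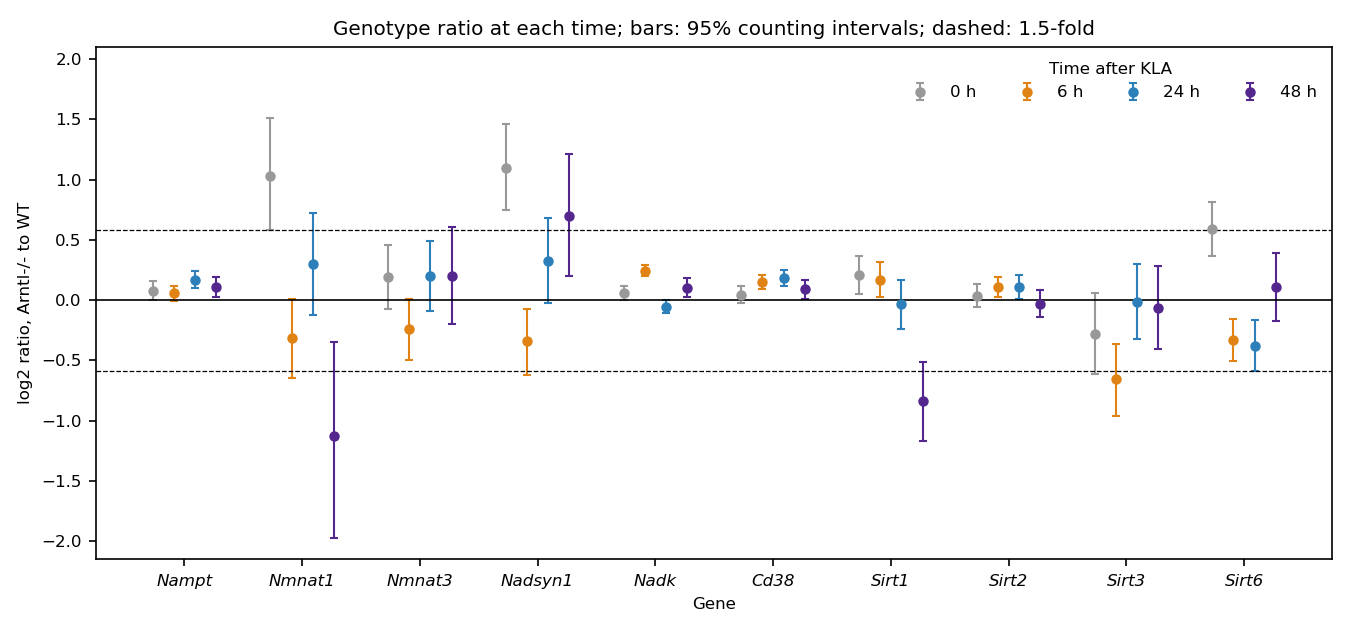
The log2 ratio of Arntl-/- to WT (vertical axis) for each of the 10 genes at 0, 6, 24 and 48 h after KLA, with bars for 95% counting intervals and dashed lines at 1.5-fold. The 4 genes of many reads (Nampt, Nadk, Cd38 and Sirt2) stayed between -0.06 and 0.24, while Nmnat1 ran from 1.03 at 0 h to -1.13 at 48 h.

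Nampt (NM_021524, chr12:33505200-33538234), the rate-limiting enzyme of NAD salvage, rose with time after KLA in both genotypes. Its level was 231, 276, 323 and 377 scaled FPKM at 0, 6, 24 and 48 h in WT, and 243, 287, 363 and 406 in Arntl-/-. Each later library of a genotype was above the earlier one. The 48 h change was 0.71 on the log2 scale in WT (interval 0.63 to 0.80) and 0.74 in Arntl-/- (0.66 to 0.81), a difference of 0.03 between the responses. Without size factors these 48 h changes were 0.57 and 0.56, just inside the line, and in Arntl-/- also 0.57 after a correction for expression level. The ratio of Arntl-/- to WT was 0.08, 0.06, 0.17 and 0.11 at the 4 times, with a mean of 0.10 ± 0.05 (SD over 4 times). It was thus above 0 at all 4 times under the scaling used, but at 6 h it was -0.07 without size factors, -0.0046 with upper-quartile scaling and -0.10 with the correction for expression level. The 48 h rise was about as large as that of the macrophage markers given above, whose part in it was not tested. No time came near 1.5-fold between genotypes, and the ranges of the genotypes overlapped.

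The Nmnat enzymes make NAD from nicotinamide mononucleotide, Nmnat1 in the nucleus and Nmnat3 in mitochondria. Nmnat1 (NM_133435, chr4:148842896-148859251) was at 26.4, 59.0, 47.2 and 36.5 scaled FPKM in WT and at 54.0, 47.4, 57.9 and 16.6 in Arntl-/-. Of the 8 libraries, WT at 0 h and Arntl-/- at 48 h stood lowest, with 53 and 20 reads, and the other 6 lay between 36.5 and 59.0. Its genotype ratio was 1.03 at 0 h (0.58 to 1.51), -0.32 at 6 h (-0.64 to 0.00), 0.30 at 24 h (-0.12 to 0.72) and -1.13 at 48 h (-1.97 to -0.35). The direction was thus not kept over the 4 times. The change from 0 to 6 h was 1.16 in WT (0.73 to 1.62) and -0.19 in Arntl-/- (-0.55 to 0.17), and that from 0 to 48 h was 0.47 (-0.13 to 1.07) and -1.69 (-2.45 to -1.02).

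Nmnat3 (NM_144533, chr9:98197002-98311847) was nearly level. It lay at 40.5, 40.4, 43.2 and 35.3 scaled FPKM in WT and at 46.2, 34.2, 49.5 and 40.6 in Arntl-/-. No comparison with 0 h or between genotypes passed 1.5-fold, and the widest was the 6 h change in Arntl-/-, at -0.43 (-0.70 to -0.17). Nmnat2, the third enzyme of this step and best known from neurons, had at most 4 reads in a library.

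Nadsyn1 (NM_030221, chr7:150981499-151008746) amidates the last intermediate of the routes from nicotinic acid and tryptophan and was the lowest of the 10. Its level was 16.1, 30.0, 23.5 and 16.1 scaled FPKM in WT and 34.4, 23.7, 29.5 and 26.3 in Arntl-/-, from 56 to 380 reads. WT at 0 h and WT at 48 h stood lowest, and Arntl-/- at 0 h highest. The ratio of Arntl-/- to WT was 1.09 at 0 h (0.75 to 1.46), -0.34 at 6 h (-0.62 to -0.07), 0.32 at 24 h (-0.03 to 0.68) and 0.70 at 48 h (0.20 to 1.21), a mean of 0.44 ± 0.61. From 0 to 6 h it changed by 0.90 in WT (0.57 to 1.25) and by -0.54 in Arntl-/- (-0.83 to -0.25), the latter inside 1.5-fold and in the opposite direction.

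Nadk (NM_138671, chr4:154936501-154965110) varied least of the 10, over a log2 range of 0.37. It was at 681, 696, 881 and 683 scaled FPKM in WT and at 710, 824, 848 and 733 in Arntl-/-. Both genotypes were highest at 24 h. The widest genotype ratio was 0.24 at 6 h (0.20 to 0.29), with a counting interval clear of equality but far inside 1.5-fold. It was 0.12 without size factors and -0.00088 with the correction for expression level, so it rests on the scaling.

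Cd38 (NM_007646, chr5:44260066-44303613), the main NAD glycohydrolase of the cell surface and a gene known to respond to lipopolysaccharide, rose with Nampt. Its level was 401, 464, 618 and 663 scaled FPKM in WT and 413, 515, 700 and 706 in Arntl-/-. At 24 h the change from 0 h was 0.62 in WT (0.55 to 0.70) and 0.76 in Arntl-/- (0.70 to 0.82), and at 48 h it was 0.73 (0.65 to 0.81) and 0.77 (0.70 to 0.84). From 24 to 48 h the ratio was 0.10 in WT (0.03 to 0.18) and 0.01 in Arntl-/- (-0.06 to 0.08), and without size factors the 48 h level was below that at 24 h in both genotypes (607 against 610 and 661 against 711 deposited FPKM). With the correction for expression level the WT changes were 0.56 at 24 h and 0.582 at 48 h and the Arntl-/- change at 48 h was 0.56, all inside the line, and the WT change at 48 h was 0.584 without size factors, also inside it. Arntl-/- stood above WT at each of the 4 times, by 0.04, 0.15, 0.18 and 0.09 (mean 0.12 ± 0.06), except that the correction for expression level gave -0.04 at 6 h. As for Nampt, this gap was a small part of the 1.5-fold line. The 48 h rise of Cd38 was near the macrophage marker medians of 0.64 in WT and 0.81 in Arntl-/-. Their part in it was not tested.

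Of the 3 genes with the same sign of the genotype ratio at all 4 times, Nampt and Cd38 were above 0 and Sirt3 below. Over all genes tested 15.3% kept 1 sign at the 4 times. With 4 times, a sign-flip test could not give a two-sided p under 0.125, so none was run. A limma fit over all genes with time as a block, chosen after the data were seen, treats the 4 times as repeats of 1 genotype difference. It called 31 of 10487 genes at an adjusted p under 0.05 (0.296%), Arntl among them (limma adjusted p = 0.0260), and none of the 10 genes, also none at an unadjusted p under 0.05. Their adjusted p in limma ran from 0.653 for Nadsyn1 to 0.998 for Sirt6, with 0.806 for Nampt, 0.801 for Cd38 and 0.699 for Sirt3.

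**Figure D3:**
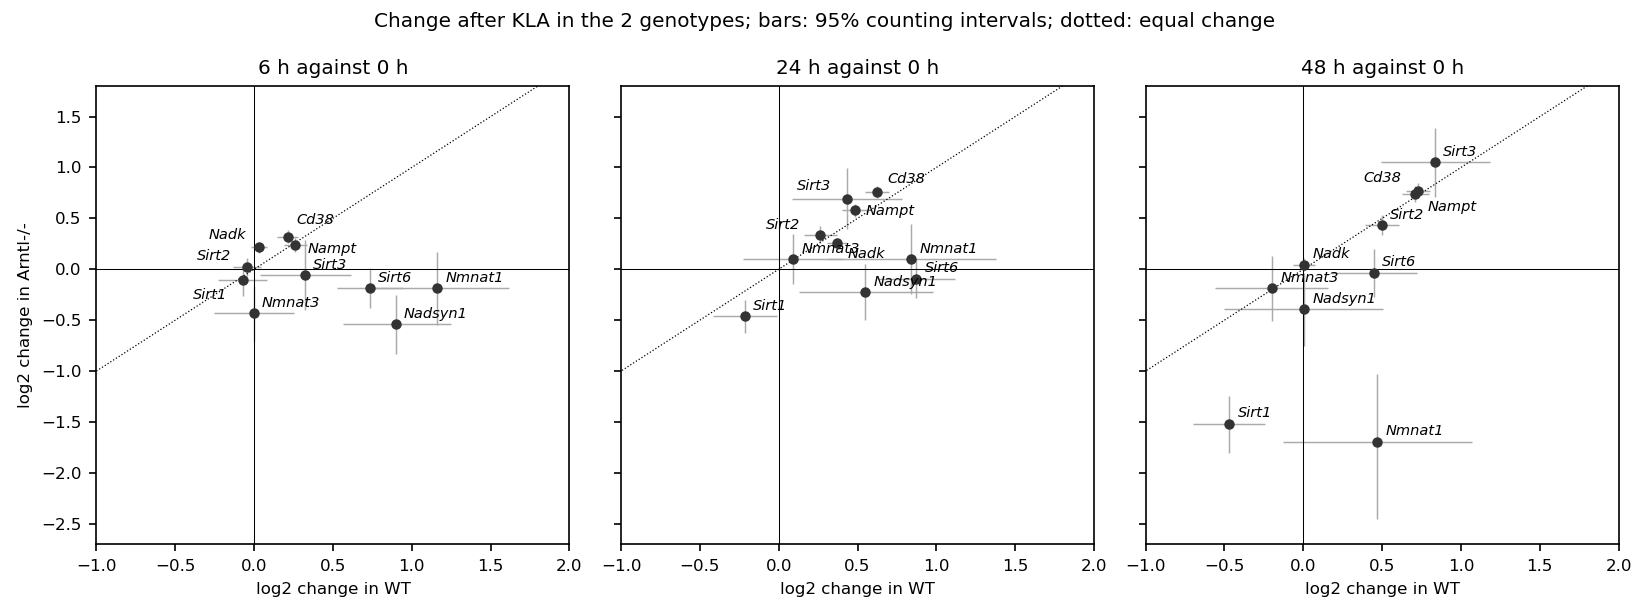
The log2 change from 0 h in Arntl-/- (vertical axis) against that in WT (horizontal axis) for the 10 genes at 6, 24 and 48 h after KLA, with bars for 95% counting intervals and a dotted line of equal change. Nampt, Cd38, Sirt2 and Sirt3 lay near the line at 48 h, and Nmnat1 (0.47 in WT and -1.69 in Arntl-/-) and Sirt1 (-0.47 and -1.52) lay below it.

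The sirtuins are NAD-dependent deacylases. Sirt1 (NM_001159589, chr10:62781753-62801783), which deacetylates nuclear proteins including the p65 subunit of NF-kappaB and clock components, was lower at 48 h than at any other time in both genotypes. Its level was 62.5, 59.5, 53.9 and 45.1 scaled FPKM in WT and 72.2, 66.9, 52.5 and 25.2 in Arntl-/-. The 6 h change was -0.07 in WT (-0.23 to 0.08), and 0.07 without size factors, and -0.11 in Arntl-/- (-0.26 to 0.04). The 48 h change was -0.47 in WT (-0.70 to -0.24), inside 1.5-fold, and -1.52 in Arntl-/- (-1.81 to -1.24), past it. Without size factors the WT change was -0.61, also past the line. The genotype ratio moved from 0.21 at 0 h (0.05 to 0.37) and 0.17 at 6 h to -0.04 at 24 h and -0.84 at 48 h (-1.17 to -0.52), with 121 reads in Arntl-/- and 227 in WT at that time. Among genes of its read class, 10.6% passed the line at 48 h. Without the 48 h libraries the mean ratio went from -0.12 to 0.11, so the single pair at 48 h set its sign.

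Sirt2 (NM_001122766, chr7:29551771-29573684), the cytosolic tubulin deacetylase, was the most abundant sirtuin measured here. It was at 432, 418, 519 and 611 scaled FPKM in WT and at 443, 451, 560 and 598 in Arntl-/-. Both genotypes were higher at 24 and 48 h than at 0 and 6 h, by up to 0.50 in WT (0.39 to 0.61) and 0.43 in Arntl-/- (0.33 to 0.53) at 48 h, inside 1.5-fold. The genotype ratio stayed between -0.03 and 0.11. In the mm9 annotation the exons of Sirt2 over all its transcripts share 42 bases with Nfkbib on the opposite strand, 1.18% of 3551 exon bases. Reads were counted over a transcript of 1638 exon bases, for which the share was not computed, and the counting took both strands.

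Sirt3 (NM_001127351, chr7:148049562-148067768), the main deacetylase of mitochondria, rose after KLA in both genotypes. Its level was 45.0, 56.3, 60.7 and 80.3 scaled FPKM in WT and 37.1, 35.6, 60.1 and 76.8 in Arntl-/-. The 48 h libraries were the highest of each genotype, with changes of 0.83 in WT (0.49 to 1.18) and 1.05 in Arntl-/- (0.71 to 1.39). At 6 h Arntl-/- was lower, with a log2 ratio of -0.66 (-0.96 to -0.37), which became -0.55 and so inside the line with the correction for expression level. The ratio was -0.28 at 0 h (-0.62 to 0.06), -0.02 at 24 h and -0.06 at 48 h, and at 24 h it was 0.03 without size factors, so that the sign was the same at 4 times with them but not without. Sirt3 shares 61 exon bases, 4.3%, with Ric8 on the opposite strand.

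Sirt6 (NM_181586, chr10:81084531-81090353), a histone deacetylase of chromatin, was at 66.5, 111, 122 and 90.6 scaled FPKM in WT and at 99.9, 87.9, 93.7 and 97.6 in Arntl-/-. The 4 Arntl-/- libraries lay within the WT range. In WT the change from 0 h was 0.73 at 6 h (0.53 to 0.95) and 0.87 at 24 h (0.63 to 1.12), whereas in Arntl-/- it was -0.19 and -0.09, both inside 1.5-fold. The genotype ratio at 0 h, 0.59 (0.36 to 0.81), was barely past the line and fell inside it under 3 of 7 alternatives.

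For Nmnat1, Nadsyn1 and Sirt6, WT at 0 h was the lowest or second lowest of the 8 libraries. It is the base of the 0 h genotype ratio and of every KLA change in WT, so these comparisons are not separate evidence. For Nadsyn1 that library did not stand alone, since WT at 48 h was as low, Arntl-/- at 0 h was the highest, and its 6 h change in Arntl-/- does not use WT at 0 h. The lowest value of Nampt, Nadk and Cd38 was in the same library. Response differences, the change in Arntl-/- minus that in WT, were -1.35 for Nmnat1, -1.43 for Nadsyn1 and -0.92 for Sirt6 at 6 h, and they could not be tested with 1 library a condition.

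Of the 10 genes, 4 ranged over at least 1 on the log2 scale across the 8 libraries (Nmnat1 by 1.82, Sirt1 by 1.52, Sirt3 by 1.17 and Nadsyn1 by 1.09), as did 29% of the genes tested. The genes most like them over the 8 libraries, by Pearson r of log2 values, are given as a description. Nmnat1 was most like Mybpc3 (r = 0.96), Styx (0.96) and Zfp623 (0.95). Sirt1 was most like 2700099C18Rik (0.99), Slc22a15 (0.98) and Rapsn (0.98), Sirt3 most like Sqrdl (0.99), Crtc1 (0.97) and Hist1h2be (0.96), and Nadsyn1 most like Cxxc1 (0.98), Ctns (0.97) and 4933404O12Rik (0.97). They are the highest of 10487 genes over 8 points that share libraries, depth and time.

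The relation of the levels to depth was computed because the libraries differed in it. Over the 8 libraries the log2 level of Nmnat1 had r = 0.71 with log depth (exact permutation p = 0.051, adjusted p = 0.170) and rho = 0.86 (exact permutation p = 0.0107, adjusted p = 0.147), and leaving out the 2 libraries farthest from the median depth gave r = 0.48. For Sirt1, r was 0.67 (exact permutation p = 0.067, adjusted p = 0.173) and rho 0.76 (exact permutation p = 0.0368, adjusted p = 0.147), with r = 0.82 without those 2. Sirt2 had r = -0.79 (exact permutation p = 0.0223, adjusted p = 0.147) and rho = -0.79 (exact permutation p = 0.0279, adjusted p = 0.147), and r = -0.65 without them. Sirt3 had r = -0.57 (exact permutation p = 0.145, adjusted p = 0.217) and rho = -0.76 (exact permutation p = 0.0368, adjusted p = 0.147), and r = -0.82 without them. Nampt had r = -0.61 (exact permutation p = 0.107, adjusted p = 0.192) and rho = -0.69 (exact permutation p = 0.0694, adjusted p = 0.173), and r = -0.54 without them. For Cd38 r was -0.61 (exact permutation p = 0.107, adjusted p = 0.192) and rho -0.62 (exact permutation p = 0.115, adjusted p = 0.192), with r = -0.50 without them. Of the 20 two-sided relations computed, none passed after Benjamini-Hochberg adjustment. The 48 h libraries were the shallowest of each genotype, so depth and late time cannot be told apart here, and over the genes tested r was at least 0.7 in 12.9% and at most -0.7 in 15.8%. Among genes of 1000 or more reads, the class of Sirt2, it was at most -0.7 in 30.1%.

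**Figure D4:**
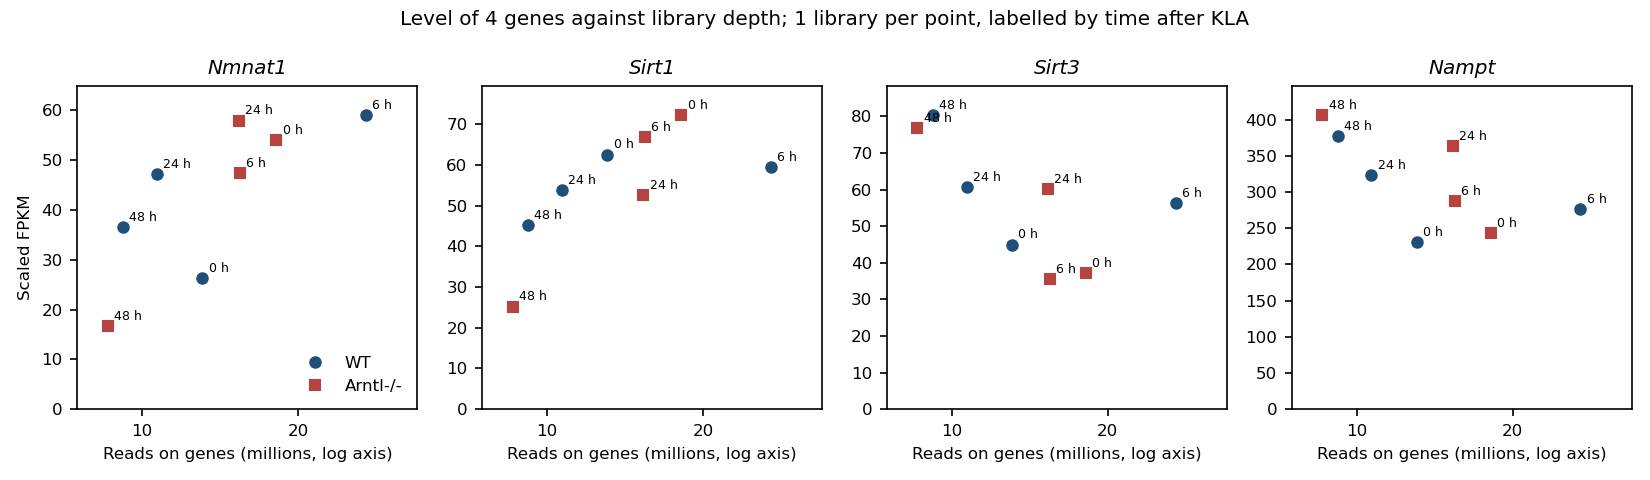
Scaled FPKM (vertical axis, from 0) of Nmnat1, Sirt1, Sirt3 and Nampt against the reads on genes of each library (horizontal log axis), with 1 library per point labelled by time after KLA, WT as circles and Arntl-/- as squares. The library of 8587560 reads, Arntl-/- at 48 h, held the lowest Nmnat1 and Sirt1 and the highest Nampt.

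The rest of the pathway was read from a list of 51 other NAD genes, of which 33 passed the filter. Past 1.5-fold in WT, 7 of the 33 rose and none fell at 6 h, 9 rose and 2 fell at 24 h, and 7 rose and 1 fell at 48 h. In Arntl-/- the counts were 2 and 0, 8 and 1, and 7 and 3, to be read beside the shares of all genes given above for each time. Between the genotypes 2, 1, 2 and 5 of the 33 were past 1.5-fold at the 4 times, 1, 0, 1 and 1 of them higher in Arntl-/-, beside 5.18%, 4.65%, 6.78% and 11.6% of all genes tested. The median change of the 33 was 0.18, 0.23 and 0.27 in WT and 0.00, 0.22 and 0.18 in Arntl-/-, where the medians of all genes tested were those given above.

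PARPs, which transfer ADP-ribose from NAD, made up most of the early rise. All 16 passed the filter, and 6 rose in WT at 6 h (Parp9, Parp10, Parp11, Parp12, Parp14 and Parp16), where 5.59% of all genes tested were higher. In Arntl-/- 2 rose, Parp12 and Parp14, beside 2.96% of all genes, and Parp9 was at 0.47, Parp10 at 0.55, Parp11 at 0.36 and Parp16 at 0.55. Parp9 to Parp14 of this group are known as interferon-induced genes. The difference between these counts was not tested. Parp14 went from 215 to 344, 433 and 457 scaled FPKM in WT and from 234 to 431, 465 and 491 in Arntl-/-. Parp1, the main PARP of the DNA damage response, fell instead, from 421 to 314, 225 and 223 in WT and from 356 to 285, 228 and 183 in Arntl-/-, a 48 h change of -0.92 and -0.95. At 24 h in Arntl-/- Parp6 (0.67) and Parp8 (0.80) joined the 6 named, for 8 of 16 beside 7.72% of all genes. In WT they were at 0.41 and 0.53. The 16 PARPs had no member past 1.5-fold between genotypes at 0, 6 or 24 h, and at 48 h Parp16 was lower in Arntl-/- (log2 ratio -1.62) on 35 against 113 reads.

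Bst1, a relative of Cd38 with the same kind of activity, rose late in both genotypes, from 399 to 372, 483 and 815 scaled FPKM in WT and from 380 to 385, 508 and 730 in Arntl-/-. Enpp1, an ectoenzyme that splits nucleotides, was at 23.4, 21.1, 11.2 and 17.9 scaled FPKM in WT and at 14.4, 14.4, 11.9 and 7.88 in Arntl-/-. It was lower in Arntl-/- at 0 h (log2 ratio -0.70) and at 48 h (-1.17, on 32 and 76 reads) but not at 24 h (0.09), and against 0 h it fell at 24 h in WT (-1.06) and at 48 h in Arntl-/- (-0.86). Sirt4, a mitochondrial sirtuin outside the 10, was higher in Arntl-/- at 0 h (68.6 against 42.7), 24 h (71.2 against 43.9) and 48 h (71.8 against 46.7) and stood at 65.7 against 66.3 at 6 h, the one high WT library. Sirt7, of the nucleolus, stayed between 359 and 477 and passed in no comparison, and Sirt5 had at most 132 reads and was under the filter.

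Of the 9 genes of the route from tryptophan only Afmid passed the filter, which rose from 19.1 to 38.0 scaled FPKM at 24 h in WT and was at 25.8 and 26.3 at those times in Arntl-/-. Of the other 8, Ido2 had at most 87 reads in a library (11.6 scaled FPKM), Ido1 16, Kynu 30, Kmo 19, Haao 19, Qprt 6, Tdo2 6 and Acmsd 2. For the alternative precursors, Naprt, which takes nicotinic acid, was at 29.9, 31.7, 21.9 and 20.5 scaled FPKM in WT and at 29.2, 19.5, 23.5 and 30.2 in Arntl-/-, and lower in Arntl-/- at 6 h (log2 ratio -0.70). Nmrk1, the kinase of nicotinamide riboside, was lower in Arntl-/- at 48 h, at 46.7 against 78.0 (log2 ratio -0.74). Nadk2, the mitochondrial counterpart of Nadk, was at 44.1, 49.8, 74.3 and 55.0 scaled FPKM in WT and at 45.9, 55.0, 67.3 and 75.5 in Arntl-/-. It passed 1.5-fold at 24 h in WT (0.75) and at 48 h in Arntl-/- (0.72), and the 24 h change in Arntl-/-, 0.55, was just inside the line. Slc25a32, a carrier of the inner mitochondrial membrane best known for folate, was at 37.1, 42.8, 37.3 and 32.0 in WT and at 45.1, 42.1, 31.8 and 19.6 in Arntl-/-. At 48 h in Arntl-/- it was lower than at 0 h (-1.20) and than in WT (-0.71), on 73 reads.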

How the data were processed

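PolyA RNA-seq libraries of WT and Arntl-/- BMDMs at 0, 6, 24 and 48 h after KLA were analysed, 1 per condition, 8 of the 37 samples of the series. The ChIP-seq samples were not analysed here, and 4 value columns that match no sample were not used. Reads from both ends of each fragment had been mapped by the authors with STAR (mm9) and tallied by HOMER over RefSeq exons, on either strand and with up to 3 tags per position, and they deposited FPKM per 10000000 reads. Versions are not given in the sources used here. The labels speak of normalized counts, but per the file headers the values are FPKM. The table held 24016 genes after 1 fragment line was left out.

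FPKM multiplied by exon length fell on whole multiples of 1 value per library, taken as 1 read (100% of values of 1 to 50 reads lay within rounding plus 2% of a read), from which depth and counting intervals were taken, and no count model was run. Libraries were scaled by the median of each one's ratios to the per-gene geometric mean, and 0.1 was added before log2. Alternatives were values as deposited, upper-quartile scaling, a lowess correction for expression level (fraction 0.3), pseudocounts of 0.01 and 1, and 2 other filters. Promoters were read from the mm9 genome. Relations to depth used exact permutation tests (scipy 1.17.1, with statsmodels 0.14.6 for lowess, in Python 3.11.15). Genotypes were also compared with limma 3.58.1 (R 4.3.3), with time as a block and a trend in the prior variance. Recovery of reads and of 1.5-fold calls was tested on simulated independent reads, and the limma fit on simulated shifts equal at all times. Neither setting matches these data, so neither checks the counting intervals or the limma outcome for the members.

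All 10 members are named. Other NAD genes are named where they passed 1.5-fold in the comparison described with at least 100 reads in 1 of its libraries, and further ones (Sirt5, Sirt7, Nmnat2 and those of the tryptophan route) were chosen after their values were seen. The members, lists and rules were chosen with earlier results of these data known.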

Additional observations from a re-analysis of the deposited data

Results flagged for a closer look

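Nadsyn1 is singled out because its change from 0 to 6 h after KLA ran in opposite directions in the genotypes, with counting intervals that both leave out 0. It was 0.90 on the log2 scale in WT (16.1 to 30.0 scaled FPKM, 89 and 380 reads) and -0.54 in Arntl-/- (34.4 to 23.7 scaled FPKM, 279 and 157 reads). Each value comes from 1 library, so the difference between the genotypes, -1.43, was not tested. Genes of its read class, with a mean under 200 scaled reads, leaned the same way at 6 h, with 274 higher and 104 lower past 1.5-fold in WT and 111 higher and 206 lower in Arntl-/-, of 1656.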

How the results depend on the processing

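No replicates exist, so what follows covers processing only. The labels carry no replicate numbers, so no replicate block was fitted and no replicate could be left out. The genotypes were paired by time alone, and with time as a block limma called none of the 10 genes (lowest adjusted p = 0.653). Over 7 alternatives to each of the 10 counts of genes past 1.5-fold, 67 counts stayed within 1.5 times the main count and 3 did not. The 2 other filters were not applied to the members and acted on them through the size factors alone. Nmnat1, with a mean of 89.8 scaled reads, would fail the filter of a mean of at least 100 but was still counted. A fall from 3 to 2, as at 0 h between genotypes where Sirt6 left, counts as within. The 67 are thus no measure of robustness. With the correction for expression level the count fell from 5 to 3 at 48 h against 0 h in Arntl-/- (Nampt and Cd38 dropped out) and from 1 to 0 between genotypes at 6 h (Sirt3). At 24 h in WT that correction kept the count at 3 but Cd38 left and Nadsyn1 entered (0.60, against 0.55 without it). Values as deposited raised it from 0 to 1 at 6 h against 0 h in Arntl-/- (Nadsyn1). Of the other values, 763 moved by less than their counting interval or the SD over times, 47 moved by more, and no called value changed sign. With values as deposited the median of all genes was -0.13 between genotypes at 6 h, 0.13 at 6 h and -0.13 at 48 h in WT, and -0.18 at 48 h in Arntl-/-. Depth limits Nmnat1 most, with 20 reads in Arntl-/- at 48 h.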
